A study of Mus musculus with 35 samples.

Results

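The *Gadd45* family consists of *Gadd45a*, *Gadd45b* and *Gadd45g*, 3 genes among the 26127 rows of an RPKM table of mouse embryonic stem cells (ESCs). Its members were found by their symbols, and the family was chosen by measured values, namely the differences between *Dnmt1* KO and WT cells at each day and the level in *Dicer* KO cells. Those differences are therefore given below as descriptions, without a test. Of the 3 genes, all passed the filter on low values (RPKM above 1 in at least 2 libraries), as did 11615 genes in total. *Gadd45g* had been put forward as rising steadily after *Dnmt1* loss. The values show a rise, but not a steady one.

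Libraries of total RNA, made after removal of ribosomal RNA, were sequenced from ESCs labelled as WT or *Dnmt1* KO on days 0, 1, 3, 6, 9, 11, 17 and 25, with 2 libraries for each genotype and day and 3 at day 1, and from 1 library of *Dicer* KO cells. By the study's methods, all of the cells derive from *Dnmt1* loxP/loxP ESCs, in which tamoxifen induces Cre and the deletion of *Dnmt1*, and which grew in serum and LIF with or without feeder cells. Whether WT cells also received tamoxifen is not given in the sources used here. The labels name E14 as the background strain, whereas the methods name C57BL/6. *Dicer* KO cells carry a constitutive CRISPR/Cas9 deletion of *Dicer* on the *Dnmt1* loxP/loxP background, and come from a line grown out of a single colony. The series calls its replicates biological without saying whether they were separate cultures, so errors and p-values measure the spread between these libraries only.

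GADD45 proteins are small, acidic nuclear proteins without known enzymatic activity, which act by binding others. They activate the kinase MAP3K4 upstream of the p38 and JNK kinases, bind PCNA, p21 (CDKN1A) and the CDK1-cyclin B complex, and have been described as adaptors that bring DNA glycosylases and repair factors to sites of active DNA demethylation. *Gadd45a* is a classical target of p53 and of growth arrest signals, *Gadd45b* is an immediate early gene induced by cytokines and NF-kB, and *Gadd45g* is induced by cytokines and marks cells that leave the cell cycle to differentiate. DNMT1 copies CpG methylation onto newly made DNA, so that its loss removes methylation over successive cell divisions.

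In NCBIM37, *Gadd45a* (ENSMUSG00000036390.6) lies on the minus strand of chromosome 6 from 66985090 to 66987451. *Gadd45b* (ENSMUSG00000015312.8) lies on the plus strand of chromosome 10 from 80392836 to 80394949, and *Gadd45g* (ENSMUSG00000021453.2) on the plus strand of chromosome 13 from 51942047 to 51943837. All have 4 exons in their protein-coding transcript, with open reading frames of 165, 160 and 159 codons. The bases just upstream of each gene are shown because CpG sites, here in capitals, are the substrate of DNMT1. The promoter windows came from RefSeq (GRCm38.p6), and each was matched once to NCBIM37 on the strand of its gene. For *Gadd45a* only the first 200 of the 250 bases are printed, since the last 50 lie inside the gene as annotated in NCBIM37.
*Gadd45a* (window chr6:66987402-66987651, minus strand): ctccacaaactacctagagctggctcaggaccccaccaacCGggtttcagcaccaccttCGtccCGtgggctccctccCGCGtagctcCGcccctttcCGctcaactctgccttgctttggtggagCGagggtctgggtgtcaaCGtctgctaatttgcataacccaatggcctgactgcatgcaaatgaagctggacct
*Gadd45b* (window chr10:80392586-80392835, plus strand): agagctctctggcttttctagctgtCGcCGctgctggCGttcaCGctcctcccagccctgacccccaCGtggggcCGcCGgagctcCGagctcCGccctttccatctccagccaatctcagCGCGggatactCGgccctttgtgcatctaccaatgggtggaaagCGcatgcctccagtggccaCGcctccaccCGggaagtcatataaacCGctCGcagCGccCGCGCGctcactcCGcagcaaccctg
*Gadd45g* (window chr13:51941794-51942043, plus strand): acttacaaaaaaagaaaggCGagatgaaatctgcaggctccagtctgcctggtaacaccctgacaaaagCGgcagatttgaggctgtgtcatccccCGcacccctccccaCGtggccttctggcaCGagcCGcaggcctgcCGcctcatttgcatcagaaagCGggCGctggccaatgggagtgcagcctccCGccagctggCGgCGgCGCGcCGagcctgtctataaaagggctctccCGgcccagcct

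Each of these windows held more CpG sites than the median promoter. *Gadd45a* had 11 CpG sites in its 250 bases, *Gadd45g* 16 and *Gadd45b* 22, whereas the median over 32817 RefSeq promoter windows of the same length was 6 (quartiles 2 and 16). Fewer CpG sites than in *Gadd45a* were found in 64.5% of those windows, fewer than in *Gadd45g* in 74.6% and fewer than in *Gadd45b* in 85.2%. The short motifs given here were searched on both strands, and no match overlapped another. The octamer ATTTGCAT was found once on each strand of *Gadd45a* and once in *Gadd45g*, and 1.60% of all windows held it. CCAAT was found in all of the genes (2 times in *Gadd45b*) and in 33.8% of windows. *Gadd45b* and *Gadd45g* shared TATAAA (12.4% of windows) and CACGTG (6.02%), neither of which was found for *Gadd45a*, and *Gadd45a* and *Gadd45b* shared GGGCGG (32.7%). These are matches of letters only. DNA methylation of these sites was not analysed here.

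*Dnmt1* RNA was examined first, as a check of the labels. Its mean level at day 0 was 18.3 RPKM in the WT libraries and 18.6 RPKM in the KO libraries. On days 1, 3, 9, 11, 17 and 25 the KO libraries had between 2.58 and 8.13 RPKM and the WT libraries between 14.1 and 34.8 RPKM. At day 6 *Dnmt1* went against the labels, with 3.22 and 3.40 RPKM in the libraries labelled WT and 20.2 and 20.4 RPKM in those labelled KO. Day 6 was therefore left out of means over days, and its libraries are named by their labels only. Libraries held between 24.3 and 72.1 mega-reads, and the fraction of them that fell in exons (the gene-read share) was from 20.2% to 22.01% in a set of 20 libraries and from 44.1% to 48.8% in the other 15. The low-share set held all libraries of days 0, 3, 6 and 9 with the first pairs (replicates 1 and 2) from day 1. The high-share set held the later days, the third pair from day 1 and the *Dicer* KO library. The sets were found in the data. Both occur at day 1, but each other day lies in 1 set, so that culture time and share cannot be told apart between those days. Since RPKM counts all reads of a library, a gene that kept its share of gene reads had about 2-fold more RPKM in a high-share library. All 10 ESC markers examined, among them *Pou5f1* and *Nanog*, exceeded 1 RPKM in at least 1 library. Their summed RPKM was lower in both KO libraries than in both WT libraries at days 3, 9 and 17 and higher at day 25, as given below.

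*Gadd45a* was the most abundant member in WT cells and was lower in *Dnmt1* KO cells from day 3 on. Its WT libraries had 8.03 and 8.65 RPKM at day 3, against 6.04 and 6.19 RPKM for KO. At day 9 WT was at 6.31 and 5.92 RPKM, and KO was lower at 5.31 and 5.06 RPKM. At day 11 WT had 13.8 and 13.6 RPKM and KO 10.8 and 10.4 RPKM. The KO libraries lay below both WT libraries on each of these days, as they did at day 17, when WT had 10.99 and 12.8 RPKM and KO 8.08 and 7.44 RPKM. At day 25 the groups overlapped, with WT at 10.7 and 12.1 RPKM and KO at 8.97 and 10.9 RPKM. Before day 3 KO and WT were close, at 7.15 and 6.63 RPKM (WT) and 7.45 and 6.96 RPKM (KO) on day 0. The low-share libraries of day 1 had 5.62 and 5.86 RPKM (WT) and 6.06 and 6.196 RPKM (KO), and the high-share pair 13.2 RPKM (WT) and 13.9 RPKM (KO). At day 6 all 4 libraries lay between 4.50 and 4.68 RPKM, the lowest RPKM of the series.

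On the log2(RPKM + 0.1) scale, the fitted KO minus WT difference of *Gadd45a* was -0.44 at day 3, -0.23 at day 9, -0.37 at day 11, -0.61 at day 17 and -0.20 at day 25 (SE 0.32 each, n = 2 per group). The last of these was -0.057 without KO replicate 1 and -0.34 without KO replicate 2. Over these 5 days the mean difference was -0.37 (SE 0.14), or 0.774-fold. The standard errors of this gene were raised by the third day 1 pair, whose RPKM was about 2-fold that of the other day 1 libraries. Without that pair the SE was 0.086 for a day and 0.038 for the mean. All KO libraries fell below all WT libraries in 28.5%, 32.8%, 20.2% and 22% of the genes tested at days 3, 9, 11 and 17, so this order was common among all genes. Across the groups of days 11, 17 and 25, the order of the *Gadd45a* means was WT day 11 (13.7 ± 0.155 RPKM), WT day 17 (11.9 ± 1.28), WT day 25 (11.4 ± 1.02), KO day 11 (10.6 ± 0.281), KO day 25 (9.95 ± 1.39) and KO day 17 (7.76 ± 0.455; SD, n = 2). The ranges of WT day 17 and WT day 25 overlapped, as did those of WT day 25 and KO day 11, and of KO day 11 and KO day 25.

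*Gadd45b* moved in the opposite direction and by more. On day 3 WT was at 3.18 and 3.25 RPKM, whereas KO was at 5.03 and 5.20 RPKM. At day 9 the WT libraries had 2.39 and 2.70 RPKM and the KO libraries 3.43 and 3.57 RPKM. The distance then widened. At day 11 WT had 5.15 and 5.17 RPKM and KO 14.2 and 8.92 RPKM, and at day 17 WT had 3.89 and 4.19 RPKM and KO 15.3 and 17.003 RPKM. At day 25 KO had come down to 10.2 and 8.56 RPKM, while WT was at 4.58 and 4.43 RPKM. On all of these 5 days both KO libraries lay above both WT libraries. At day 0 the groups overlapped, with WT at 1.57 and 2.38 RPKM and KO at 2.12 and 1.84 RPKM. On day 1 the low-share WT libraries had 3.57 and 3.195 RPKM and the low-share KO libraries 4.02 and 3.59 RPKM, and in the high-share pair KO was lower, with 5.97 RPKM against 6.24 RPKM. At day 6 the libraries labelled WT had 4.32 and 5.08 RPKM and those labelled KO 4.46 and 3.90 RPKM, and the ranges overlapped.

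The KO minus WT difference of *Gadd45b* was 0.65 at day 3, 0.45 at day 9, 1.11 at day 11, 1.97 at day 17 and 1.04 at day 25 on the log2 scale (SE 0.27 each, n = 2 per group), and 1.04 in the mean over these days (SE 0.12), or 2.06-fold. These standard errors were also raised by the third day 1 pair, and were 0.17 for a day and 0.075 for the mean without it. At day 17 the ratio of the mean RPKM was 4.003. Across the groups of days 11, 17 and 25, the order of the *Gadd45b* means was KO day 17 (16.2 ± 1.17 RPKM), KO day 11 (11.6 ± 3.77), KO day 25 (9.36 ± 1.14), WT day 11 (5.16 ± 0.0143), WT day 25 (4.50 ± 0.107) and WT day 17 (4.04 ± 0.207; SD, n = 2). KO day 11 and KO day 25 overlapped, and the other neighbours did not. Without KO replicate 1 of day 11, which had 14.2 RPKM, the difference at that day was 0.78, and without KO replicate 2 it was 1.45.

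*Gadd45g* was the rarest member, with a median of 1.05 RPKM over the 35 libraries and between 3 and 123 reads per library. WT libraries of day 3 had 0.853 and 0.785 RPKM and those of KO 1.22 and 1.16 RPKM. By day 9 WT was at 0.723 and 0.912 RPKM and KO at 1.05 and 0.976 RPKM, a narrower distance. At day 11 the KO libraries had 0.813 and 1.13 RPKM, while the WT libraries had 0.0787 and 0.199 RPKM, from 3 and 9 reads. The ratio of the genotypes was thus highest at day 11, where WT was low. The distance in RPKM was widest at day 17, when KO was at 3.39 and 2.73 RPKM against WT at 1.38 and 1.06 RPKM. By day 25 KO was down to 1.32 and 1.28 RPKM, and WT had 0.965 and 0.880 RPKM. Both KO libraries exceeded both WT libraries on each of these 5 days. At days 0 and 1 the ranges overlapped, with WT between 0.690 and 1.33 RPKM and KO between 0.835 and 1.25 RPKM. At day 6 they also overlapped, with 0.659 and 1.02 RPKM in the libraries labelled WT and 0.941 and 1.43 RPKM in those labelled KO.

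For *Gadd45g* the fitted KO minus WT difference was 0.49 at day 3, 0.28 at day 9, 2.19 at day 11, 1.26 at day 17 and 0.45 at day 25 on the log2 scale (SE 0.25 each, n = 2 per group). The mean over these days was 0.94 (SE 0.11), or 1.91-fold, and it was 0.47 with a pseudocount of 1. With that pseudocount the difference was 0.79 at day 11 and 0.87 at day 17, so that which day was highest depended on the pseudocount. At day 9 it was 0.14 without WT replicate 1 and 0.43 without WT replicate 2. At day 11 the KO libraries had 70 reads and the WT libraries 12, a ratio of 6.71 in reads per mega-read, with an exact 95% interval for counting error from 3.61 to 13.6. In replicate 1 alone the ratio rested on 30 and 3 reads and was 10.3 (3.22 to 52.96). At day 17 it was 2.51 (1.95 to 3.27), from 221 and 85 reads. Apart from replicate 1 alone, these intervals pool the reads of a group and leave out the spread between its libraries. They describe counting error and are no test, since these differences had entered the choice of the family. The difference of *Gadd45g* did not grow from day to day, and it was close to that of day 3 again at day 25. Among the WT and *Dnmt1* KO groups of days 11, 17 and 25, KO day 17 (3.06 ± 0.464 RPKM) lay above all others and WT day 11 (0.139 ± 0.0853 RPKM; SD, n = 2) below all others. The groups between them, KO day 25, WT day 17, KO day 11 and WT day 25, each overlapped the next in that order. All KO libraries exceeded all WT libraries in 34.9% of the genes tested at day 3, 39.1% at day 9, 31.9% at day 11, 42.6% at day 17 and 49.5% at day 25, so that for *Gadd45b* and *Gadd45g* alike this order alone was not unusual.

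**Figure D1:**
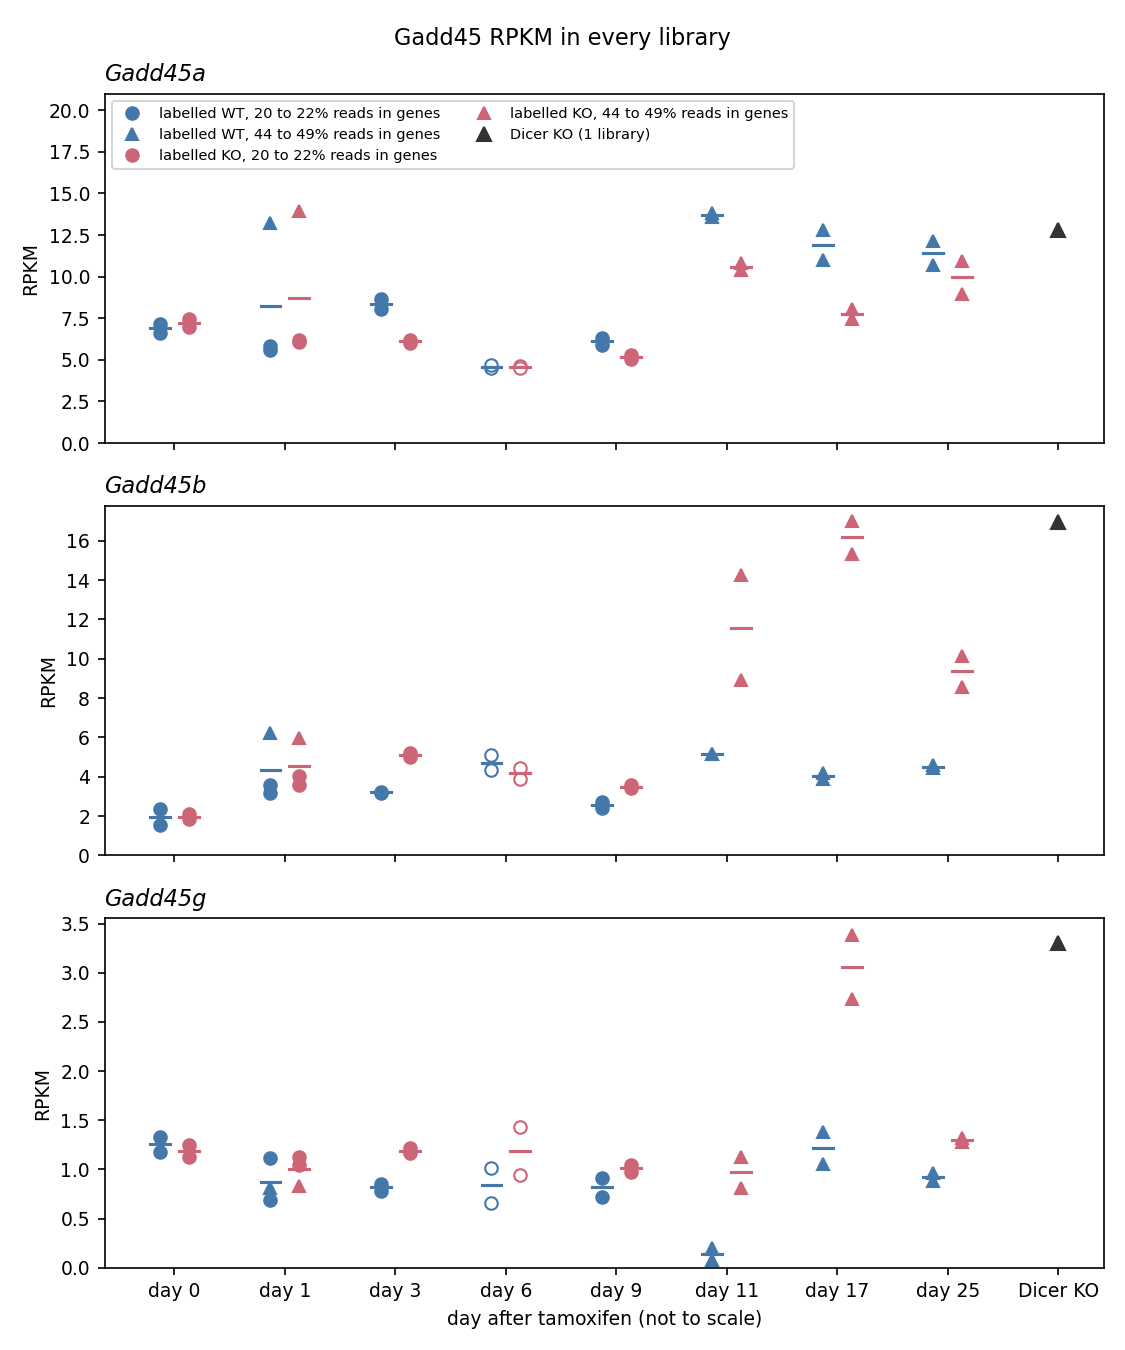
RPKM (linear axis from 0) of *Gadd45a*, *Gadd45b* and *Gadd45g* in each of the 35 libraries by day, for libraries labelled WT (blue) and KO (red) and for *Dicer* KO (black). Circles are low-share and triangles high-share libraries, open symbols mark day 6, and bars are group means. Among the WT and *Dnmt1* KO groups, *Gadd45b* and *Gadd45g* had their highest means in KO at day 17, at 16.2 and 3.06 RPKM.

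**Figure D2:**
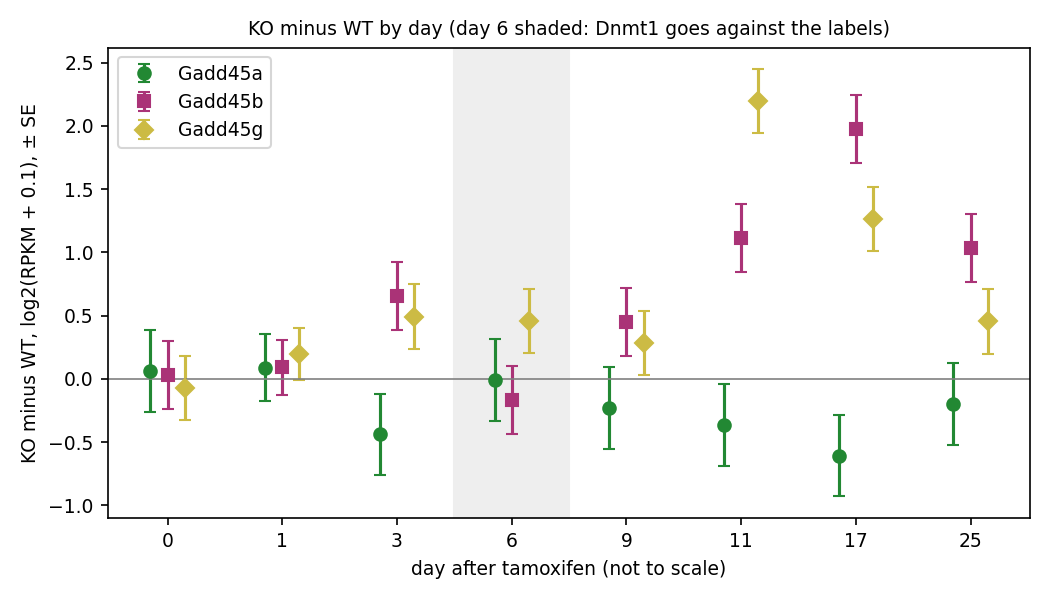
Fitted KO minus WT difference of each member by day on the log2(RPKM + 0.1) scale, with SE bars from the fit over 34 libraries. *Gadd45a* lay below 0 from day 3 except near 0 at day 6 (shaded), *Gadd45b* peaked at day 17 (1.97) and *Gadd45g* at day 11 (2.19).

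The make-up of the family shifted accordingly. In WT libraries other than those labelled WT at day 6, *Gadd45a* gave between 54.5% and 72.6% of the summed RPKM of the 3 genes. At day 17 it gave 67.6% and 70.9% in WT but 30.1% and 27.4% in KO, where *Gadd45b* gave 57.2% and 62.6%. *Gadd45b* was also the larger part in 1 of 2 KO libraries at day 11 (55.1% and 43.6%) and in 1 of 2 at day 25 (49.7% and 41.2%). *Gadd45g* gave between 0.413% and 14.6% of the sum in any library. The lowest share was in WT at day 11 and the highest in a library labelled KO at day 6. The summed RPKM of the family at day 17 was 16.3 and 18.0 in WT and 26.8 and 27.2 in KO.

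**Figure D3:**
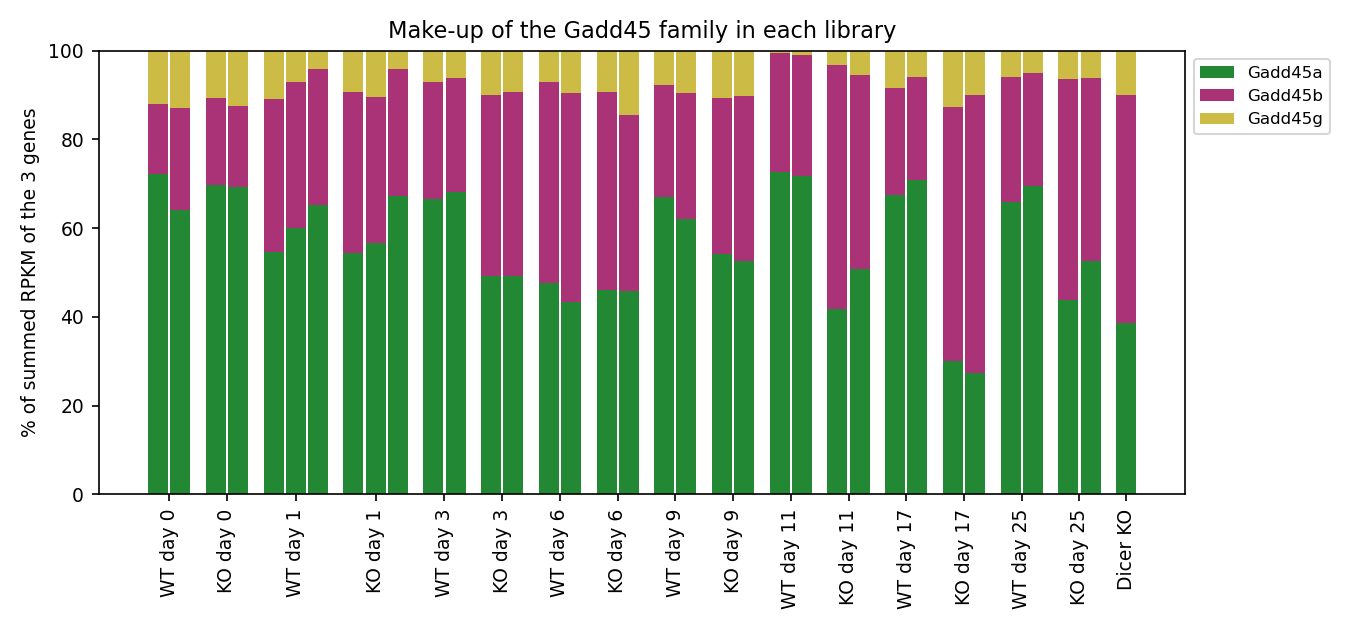
Share of *Gadd45a*, *Gadd45b* and *Gadd45g* in the summed RPKM of the family, in percent, with 1 bar per library. *Gadd45a* is the largest part in most libraries, and *Gadd45b* is at 57.2% and 62.6% in KO at day 17 and 51.3% in *Dicer* KO.

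Changes of the family in WT cells over time rest on the same WT values as the differences above, and are therefore also given without a test. They were taken within a share set only. Between day 0 and day 9, *Gadd45a* differed in WT by -0.17 (SE 0.32), *Gadd45b* by 0.38 (SE 0.27) and *Gadd45g* by -0.57 (SE 0.25) on the log2 scale. Between day 11 and day 25, *Gadd45g* was higher in WT at day 25 by 2.14 (SE 0.25), with 0.139 ± 0.0853 RPKM at day 11 and 0.922 ± 0.0603 RPKM at day 25 (SD, n = 2). These levels rest on 12 reads at day 11 and 62 at day 25, a ratio of 6.42 with an exact 95% counting interval of 3.43 to 13.1. This interval pools the reads of each group, leaves out the spread between its libraries and is no test. Over the same days *Gadd45a* differed by -0.27 (SE 0.32) and *Gadd45b* by -0.19 (SE 0.27).

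RPKM divided by the gene-read share gives levels per mega-read in exons of genes, with no test. This scale did not make the sets alike for every gene. On it, *Dnmt1* in WT at day 1 was at 84.0 and 84.6 in the low-share libraries and at 40.9 in the high-share library. On this scale *Gadd45a* in WT had a median of 29.0 in the 10 low-share libraries labelled WT and 27.6 in the 7 high-share libraries, and *Gadd45b* 14.8 and 10.4. *Gadd45g* had 4.15 and 1.97. The approximate doubling of *Gadd45a* RPKM between day 9 and day 11 was thus matched by the gene-read share. At day 1, where both sets occur, *Gadd45a* had between 26.3 and 28.9 on this scale in the low-share libraries and 27.8 (WT) and 29.7 (KO) in the high-share pair. For *Gadd45b* the low-share libraries of that day lay between 14.95 and 18.7 and the high-share pair at 13.1 and 12.7, and for *Gadd45g* between 3.23 and 5.28 and at 1.70 and 1.78. *Gadd45g* was lower on this scale at day 11 than at day 9 in both genotypes, with 4.76 ± 0.211 at day 9 and 2.11 ± 0.582 at day 11 in KO, and 3.88 ± 0.664 and 0.305 ± 0.187 in WT (SD, n = 2). Since *Gadd45g* was also lower in the high-share pair at day 1, culture time and set cannot be told apart here. For KO at day 17 the values on this scale were 16.1 ± 1.01 for *Gadd45a*, the lowest of all groups, and 33.6 ± 2.31 for *Gadd45b* and 6.35 ± 0.987 for *Gadd45g* (SD, n = 2), the highest among the *Dnmt1* series for both.

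In the *Dicer* KO library, *Gadd45b* and *Gadd45g* were near the highest levels of *Dnmt1* KO. *Gadd45b* had 16.97 RPKM (554 reads), against a range of 3.89 to 6.24 RPKM in the 7 high-share WT libraries, and *Gadd45g* 3.31 RPKM (100 reads) against 0.0787 to 1.38 RPKM. The log2 differences from the mean of those libraries were 1.81 and 2.27. *Gadd45a* had 12.8 RPKM, within the WT range of 10.7 to 13.8 RPKM (difference 0.046). With 1 library there is no replicate check. Among all genes tested, 14.6% exceeded the WT mean by more than 1 log2 unit and 30.9% lay above all 7 WT libraries. *Dnmt1* was present at 34.8 RPKM, and *Dicer1* RNA, at 4.01 RPKM, lay within the WT range of 3.90 to 8.57 RPKM, so that its level does not check the label. The *Dicer* KO library also held the most fibroblast marker RNA of the series. The summed RPKM of 14 fibroblast markers was 236 there and between 24.5 and 56.2 in the WT libraries from day 11 on, and all 10 of those markers that were tested exceeded the WT mean by more than 1 log2 unit. The part of fibroblast RNA in the *Gadd45b* and *Gadd45g* levels of this library was not tested.

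In the *Dnmt1* series the fibroblast marker sum was higher in both KO libraries than in both WT libraries on 4 of the 5 days on which *Gadd45b* and *Gadd45g* were. It lay between 66.9 and 69.3 RPKM in KO and between 51.1 and 51.9 RPKM in WT at day 3, and between 67.1 and 70.0 RPKM and between 48.0 and 49.6 RPKM at day 9. At day 11 it was from 58.4 to 70.6 RPKM in KO and from 53.5 to 56.2 RPKM in WT, and at day 17 from 34.03 to 36.02 RPKM and from 24.5 to 29.6 RPKM. At day 25 the ranges overlapped (42.4 to 48.3 and 42.6 to 46.1 RPKM). Of the 10 fibroblast markers tested over these days with limma, *Sparc*, a matrix protein, rose (0.73, adjusted p 9.756e-09) and *Fn1*, which encodes fibronectin, fell (-0.71, adjusted p 0.00113), with a list median of 0.39, where 13.2% of all genes rose and 5.75% fell. *Postn*, *Dcn*, *Lum* and *Pdgfrb* did not pass the filter, and no marker of the list was at 0 in all libraries.

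Other marker sums moved with the family as well. That of 8 primitive endoderm markers was higher in KO on the same 4 days, with 47.6 and 52.9 RPKM in KO against 41.6 and 44.4 RPKM in WT at day 3, and 40.5 and 42.8 against 20.95 and 25.095 at day 9. At day 11 it was at 28.5 and 51.6 RPKM in KO against 17.7 and 20.9 in WT, at day 17 at 12.8 and 13.4 against 6.59 and 9.24, and at day 25 it overlapped. Of the 5 primitive endoderm markers tested, 2 rose and none fell over the 5 days, where 13.2% and 5.75% of all genes did. At day 17 none of them was called, and their median difference was 0.057. The sum of 5 markers of the 2-cell embryo, mostly *Zscan4* genes, was higher in KO on all 5 days. In KO it lay between 1.295 and 1.41 RPKM at day 3, at 4.03 in both libraries at day 9, between 3.16 and 4.84 at day 11, at 9.15 and 9.36 at day 17 and between 1.00026 and 1.29 at day 25, whereas WT stayed at or below 0.358 RPKM on these days. The filter on low values could be passed only through KO libraries or those labelled WT at day 6. In all other WT libraries this sum was at most 0.435 RPKM. The 3 of these markers that passed had a list median of 2.90, given as a description only. The sum of the 10 ESC markers was at 741 RPKM in both KO libraries against 778 and 823 in WT at day 3, from 652 to 678 against 719 to 742 at day 9, and from 1225 to 1264 against 1285 to 1488 at day 17. It overlapped at day 11 and was higher in KO at day 25 (1288 to 1299 against 1011 to 1036). By gene, 1 of the 10 ESC markers rose and 1 fell over the 5 days, where 13.2% and 5.75% of all genes did. None of them was called at day 9 or day 17, and their median difference at day 17 was 0.045. The sum of 10 neural and mesoderm markers stayed at or below 9.06 RPKM in all libraries. Fewer cells of a type and less RNA per cell cannot be told apart in these bulk libraries, and the part of any of these cell types or states in the *Gadd45* values was not tested.

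Genes that act with or on GADD45 proteins were examined in lists drawn from general knowledge. The lists were chosen with earlier results of these data known, and 76 distinct genes of 82 were tested. For these the KO minus WT mean over days 3, 9, 11, 17 and 25 was tested with limma. Of the 76 genes, 14 rose and 5 fell, whereas 13.2% of all genes tested rose and 5.75% fell. The list median was 0.030, and the median of all genes was 0.056 on the log2 scale. Most rises were p53 targets. Without the third day 1 pair, 31 rose and 18 fell, with 37.8% and 20.7% of all genes.

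Among 12 kinases of the p38 and JNK cascades, *Map3k5*, which encodes the stress kinase ASK1, rose by 0.86 (SE 0.093, adjusted p 3.003e-07), from 0.707 ± 0.0461 to 1.31 ± 0.0915 RPKM at day 17 (SD, n = 2). *Mapk11*, a p38 kinase, fell by 0.30 (SE 0.10, adjusted p 0.0378). *Map3k4*, the kinase that GADD45 proteins bind, differed by 0.021 (SE 0.079, adjusted p 0.912). Thus 1 of the 12 rose and 1 fell, where 13.2% and 5.75% of all genes did. Without the third day 1 pair 4 rose and 3 fell, with 37.8% and 20.7% of all genes. Of 11 cell cycle and growth partners tested, 2 rose and none fell, where 13.2% of all genes rose and 5.75% fell. *Cdkn1a*, the inhibitor of cyclin-dependent kinases known as p21, rose by 0.81 (SE 0.17, adjusted p 0.00151) and *Rxra*, a retinoid receptor, by 0.61 (SE 0.091, adjusted p 2.333e-05). *Pcna*, *Cdk1* and *Ccnb1* differed by between -0.043 and 0.051 and did not pass. Without the third day 1 pair 5 of the 11 rose and none fell, with 37.8% and 20.7% of all genes.

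Of 14 genes of DNA demethylation and repair, 1 rose and 1 fell, where 13.2% and 5.75% of all genes did. *Ercc5*, the nuclease XPG of nucleotide excision repair, rose by 0.41 (SE 0.062, adjusted p 2.631e-05). *Neil2*, a DNA glycosylase, fell by 0.28 (SE 0.086, adjusted p 0.022). *Tdg*, the glycosylase that removes oxidised methylcytosine, differed by -0.090 and *Tet1* by -0.40 without passing. Without the third day 1 pair both were called lower (adjusted p 0.0266 and 8.138e-05). In that setting 4 of the 14 rose and 6 fell, with 37.8% and 20.7% of all genes. Of 20 regulators of *Gadd45* genes, *Mdm2*, the ubiquitin ligase of p53 and itself its target, rose by 0.38 (SE 0.09, adjusted p 0.00341) over the 5 days. At day 25 alone it was lower in KO, by -0.94 (SE 0.20, adjusted p 0.0016), from 24.5 ± 0.805 (WT) to 12.8 ± 0.267 RPKM (SD, n = 2). On that day 7 of the 20 were called lower and none higher, with 11.3% and 9.6% of all genes. *Zfp217*, a zinc finger protein, fell by 0.35 (SE 0.087, adjusted p 0.00526) and *Nfkb1*, a subunit of NF-kB, by 0.25 (SE 0.081, adjusted p 0.031). The RNA of p53 itself (*Trp53*) differed by 0.018 (SE 0.29, adjusted p 0.98). Over the 5 days 1 of the 20 regulators rose and 2 fell, where 13.2% and 5.75% of all genes did. Without the third day 1 pair 4 rose and 8 fell, with 37.8% and 20.7% of all genes.

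Of these 5 lists, that of p53 targets had the highest median. Of 21 tested, 11 rose and 1 fell, where 13.2% and 5.75% of all genes did, with a list median of 0.36. Without the third day 1 pair 16 rose and 1 fell, with 37.8% and 20.7% of all genes. With day 6 included as labelled 8 rose. No share of all genes is given for that setting, so this count cannot be set against all genes. *Perp*, a membrane protein of p53-dependent cell death, had the highest difference (0.93, SE 0.23, adjusted p 0.00625), followed by *Cdkn1a*, *Btg2*, an antiproliferative gene (0.77, SE 0.086, adjusted p 4.705e-07), and *Phlda3*, an inhibitor of AKT (0.68, SE 0.088, adjusted p 4.414e-06). *Sesn2*, a stress-induced regulator of metabolism, fell by 0.28 (SE 0.091, adjusted p 0.0311). At day 17, 12 of the 21 were called higher and none lower, with 9.13% and 1.23% of all genes, and the list median was 0.61. *Cdkn1a* was at 5.25 ± 0.275 RPKM in WT against 18.8 ± 0.138 RPKM for KO, and *Perp* at 14.1 ± 2.09 against 47.5 ± 0.941 RPKM (SD, n = 2). At day 25, 2 of the 21 were higher and 6 were lower, with 9.6% and 11.3% of all genes. *Gadd45a* had its lowest difference (-0.61) at day 17. The part of p53 in the *Gadd45* values was not tested.

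**Figure D4:**
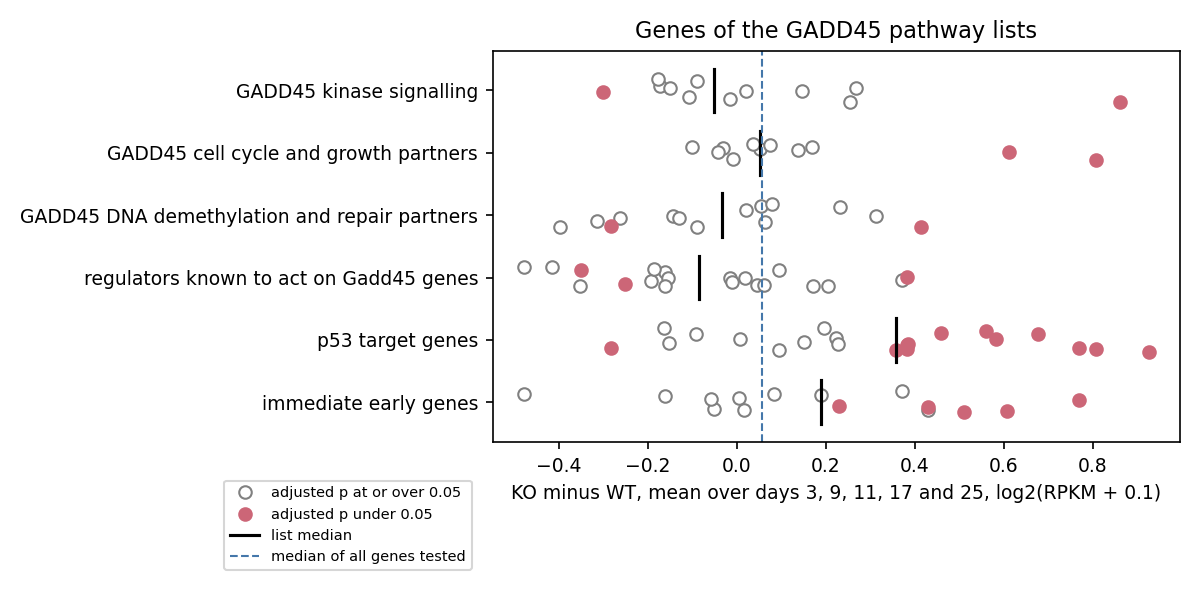
KO minus WT difference, as the mean over days 3, 9, 11, 17 and 25 on the log2(RPKM + 0.1) scale, of each tested gene of the lists, with 1 point per gene (filled where the adjusted p was under 0.05; vertical scatter is for display). Black lines are list medians and the dashed line is the median of all genes tested (0.056); of the 6 lists drawn, the p53 targets have the highest median (0.36).

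**Figure D5:**
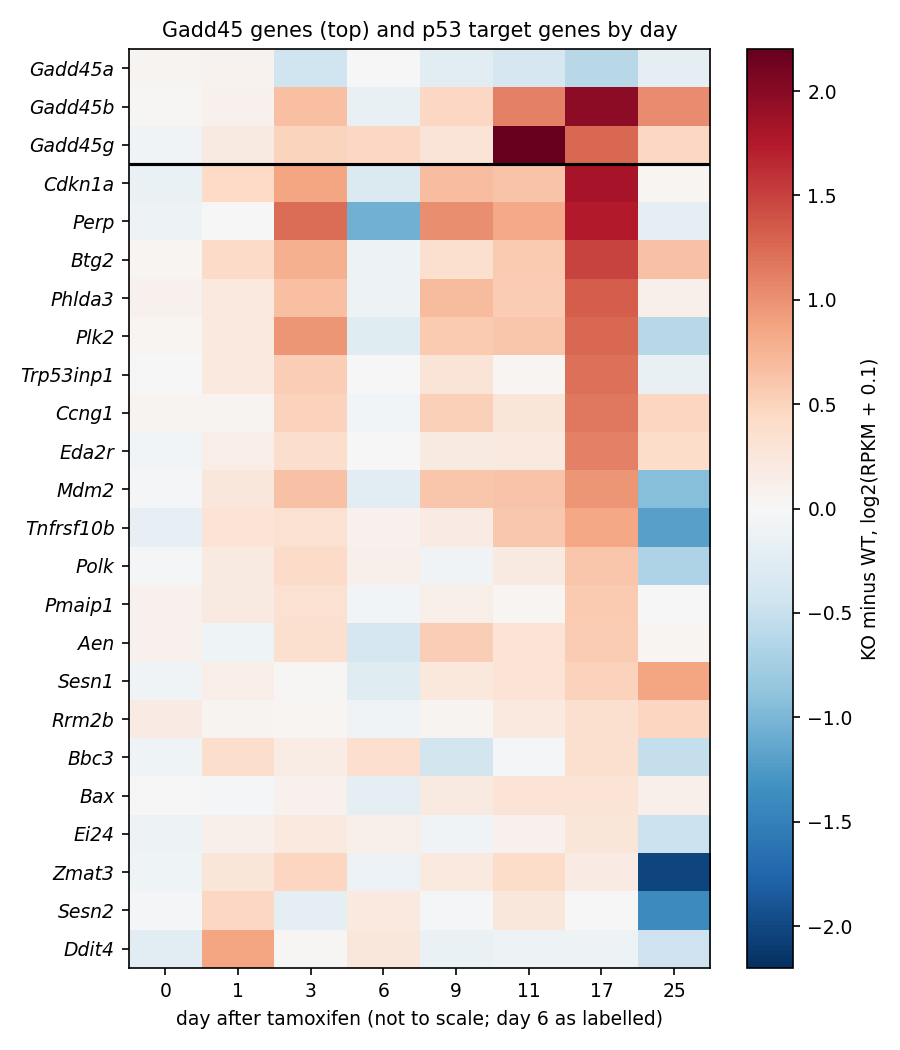
KO minus WT difference by day on the log2(RPKM + 0.1) scale (colour) for the *Gadd45* genes and 21 p53 target genes, ordered by day 17. *Gadd45b* (1.97), *Cdkn1a* (1.82) and *Perp* (1.75) were highest at day 17, when *Gadd45a* was at -0.61.

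Of 15 immediate early genes tested, 5 rose and none fell over the 5 days, with a list median of 0.19, whereas 13.2% and 5.75% of all genes did. Without the third day 1 pair 7 rose and 1 fell, *Myc*, a growth regulator (adjusted p 0.00884), with 37.8% and 20.7% of all genes. The 5 were *Btg2*, *Ier5* (0.61, SE 0.13, adjusted p 0.00157), *Junb* (0.51, SE 0.13, adjusted p 0.00695), *Klf6* (0.43, SE 0.10, adjusted p 0.00337) and *Jund* (0.23, SE 0.068, adjusted p 0.0193). *Junb* and *Jund* encode subunits of the AP-1 transcription factor, and *Klf6* encodes a zinc finger factor. *Egr1*, an activator of *Gadd45* genes, differed by -0.16 (SE 0.16, adjusted p 0.575). In *Dicer* KO 8 of the 15 exceeded the WT mean by more than 1 log2 unit and 2 lay below it by as much, as did 14.6% and 9.3% of all genes.

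The genes whose profiles were most like those of the family were sought by Pearson's r over the 34 WT and *Dnmt1* KO libraries, after the mean of each day was removed, with the third day 1 pair centred on its own mean. What is left is mostly the contrast of the genotypes, which all of these libraries share, so these values are descriptions. For *Gadd45b* they included *Csrp1*, a LIM domain protein (r = 0.969), and *6430531B16Rik* (0.947). For *Gadd45g* they were *H6pd*, a dehydrogenase of the endoplasmic reticulum (0.864), *Crocc*, which encodes rootletin (0.848), and *Gatsl3* (0.838). For *Gadd45a* they were *Mkrn1*, a ubiquitin ligase (0.876), *Cth*, the cystathionine gamma-lyase of cysteine synthesis (0.855), and *Zfp141* (0.845). *Csrp1* had a mean KO minus WT difference of 0.99 (SE 0.091) and *Cth* of -0.76 (SE 0.16). Within the family r was -0.853 between *Gadd45a* and *Gadd45b*, -0.734 between *Gadd45a* and *Gadd45g*, and 0.732 between *Gadd45b* and *Gadd45g*.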

How the data were processed

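Total RNA libraries were trimmed by the authors with Trim Galore 0.3.5 and aligned with TopHat2 2.0.11 to NCBIM37; reads of low mapping quality were discarded and genes were quantified in SeqMonk. The deposited table holds linear RPKM made by the authors (35 libraries, 1 column each), whereas the methods name log2 RPM. Exon lengths (GENCODE vM1) turned RPKM into reads, and between 99.5% and 99.7% of values under 20 reads came out whole (within 0.1). Between 5.10 and 17.53 mega-reads per library fell in exons. Intervals and the floor of 3 reads cover counting error only.

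The 11615 genes that exceeded an RPKM of 1 in 2 or more of 34 libraries were fitted as group means of log2(RPKM + 0.1) with limma 3.58.1 (trended eBayes, R 4.3.3), with Benjamini-Hochberg adjustment over all genes. This scale understates changes of low genes. The fit was tested on simulated data. The *Dicer* KO library was not fitted. A planned test of WT cells over time was not used, since the WT values had entered the choice of the family. Of the 82 pathway and 20 immediate early genes, all had a row. *Sox1*, *Tcstv1* and *Tcstv3*, of the marker lists, were not matched, and *Usp17la* was matched to *Dub1*. Members and lists were chosen with earlier results of these data known. Named genes were the members, *Dnmt1*, *Dicer1*, list genes that were called or most changed, and the 3 genes most correlated with each member, of which 1 is not reported here. Replicate numbers did not pair the libraries. Alternatives were other pseudocounts, no filter, median centring, only the groups compared, a replicate block, leaving out libraries, voom on recovered reads, and day 6 as labelled. Figures used matplotlib 3.10.9.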

Additional observations from a re-analysis of the deposited data

How the results depend on the processing

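The KO minus WT mean kept its direction for each member under all settings run. It ranged from -0.446 to -0.309 for *Gadd45a*, 0.843 to 1.11 for *Gadd45b* and 0.467 to 1.099 for *Gadd45g*. The lowest *Gadd45g* value came with a pseudocount of 1. No filter, leaving out the third day 1 pair, only the groups compared and a replicate block could not move these differences of group means. The direction had also entered the choice of the family, so that it is a description only. Leaving out 1 library at a time gave -0.398 to -0.341, 0.977 to 1.11 and 0.863 to 1.01. The WT differences between days get no test. For *Gadd45a*, day 25 against day 11, the difference was -0.267 in the main fit and -0.362 with median centring. Leaving out the third day 1 pair, only the groups compared and a replicate block could not move it, as it is a difference of group means. For the same reason the *Gadd45g* difference of day 9 against day 0 stayed at -0.569 with only the groups compared. Of the pathway genes, 14 rose and 5 fell in the main fit, where 13.2% and 5.75% of all genes did. Without the third day 1 pair those shares were 37.8% and 20.7%. For the other settings no share is given, so the pathway counts there cannot be set against all genes. The counts were 31 and 18 without the third day 1 pair, 28 and 16 with only the groups compared, 16 and 9 with median centring, 11 and 1 with day 6 as labelled, and 29 and 13 with day 6 as labelled but without the third day 1 pair, a setting chosen after seeing the data. Leaving out 1 library gave 12 to 14 that rose and 1 to 6 that fell; the lowest came without WT replicate 2 of day 11. The cause was not tested. Replicate numbers did not pair the libraries, since the deviations of same-numbered WT and KO libraries had correlations from -0.159 to 0.26 over the days. With a replicate block, 29 pathway genes rose and 16 fell. Depth limits *Gadd45g* most, with 3 and 9 reads in WT at day 11.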
